A study of Mus musculus with 36 samples.

Results

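Long-term hematopoietic stem cells (LT-HSC) were compared with HPC-1, a restricted hematopoietic progenitor, in angiotensin II (Ang II) infused mice whose Il27ra gene was intact. The comparison takes every library that the labels give for these sorted cell types with this genotype and agent, 2 of LT-HSC and 3 of HPC-1, which is 5 of the 36 samples of the series. Both groups came from Apoe-/- mice on the C57BL/6 background, which lack apolipoprotein E and develop raised plasma cholesterol. The mice were fed a Western diet for 12 weeks from 8 weeks of age, and Ang II was given by osmotic pump in the final 2 weeks. The gender of the mice is not in the labels. Bone marrow cells were sorted by surface protein, 5000 cells for each sample: LT-HSC as lineage-negative Sca-1+ c-Kit+ CD150+ CD48- cells and HPC-1 as lineage-negative Sca-1+ c-Kit+ CD150- CD48+ cells. The labels name the second population ST-HSC. The other genotypes used for comparison below are Il27ra heterozygous and Il27ra knockout Apoe-/- mice on the same diet and agent, with 4 libraries of each cell type in each genotype, and the rest of the series is from mice given PBS.

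LT-HSC sit at the top of blood formation: most of them are out of cycle, and they can rebuild every blood lineage for the life of the animal. HPC-1 share the Sca-1 and c-Kit surface proteins with them, but divide more, have lost durable self-renewal and have begun to switch on genes of the myeloid and lymphoid lineages. The IL-27 receptor, encoded by Il27ra with the shared subunit Il6st, signals through JAK kinases to STAT proteins, and in blood stem cells it is one of several routes by which inflammation reaches the compartment. Ang II is the active peptide of the renin-angiotensin system and raises blood pressure. The comparison asks how the transcriptomes of these populations differ under that infusion with the receptor gene present.

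What was measured is the number of sequenced RNA fragments assigned to each gene, from total RNA with ribosomal sequences removed. The libraries held 2244419 and 2077699 counts for LT-HSC replicates 1 and 2, and 3517996, 3412686 and 2319520 counts for HPC-1 replicates 1 to 3. Values are given below as normalised CPM, each count as a share of its library's total after TMM scaling, in replicate order. At least 1 count was found for 14018 and 13631 genes in LT-HSC and for 15738, 16024 and 13053 genes in HPC-1. The last of these is the lowest of all 36 libraries, and both LT-HSC libraries lie under the 14200 to 26187 genes of the 15 other LT-HSC libraries.

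Several of the 5 libraries stood apart in the genes they missed. For each library, genes at 0 were counted that held a median of at least 10 CPM in the other libraries of its cell type. LT-HSC replicates 1 and 2 had 35 and 48 such genes, where the 15 other LT-HSC libraries had 5 to 20 (median 9). HPC-1 replicates 1 and 2 had 4 and 6, within the range of 2 to 19 (median 7) of the 16 other HPC-1 libraries, and replicate 3 had 118. Total counts do not order the libraries in the same way, since no other library missed more than 20 such genes, the shallowest of the series with 1980283 counts included. HPC-1 replicate 3 also stood apart by correlation of log2 CPM across genes, with r = 0.898 and 0.901 to HPC-1 replicates 1 and 2, which correlated with each other at 0.983, and the LT-HSC libraries correlated at 0.912. These are correlations across genes, which are not independent replicates. Among all 630 pairs of libraries the highest correlation was 0.986. At most 6.87% of the genes with counts in either library of a pair had identical counts, so no library was a copy of another. The pair with that highest correlation held a library outside the 5, labelled LT-HSC from PBS-infused knockouts, and an HPC-1 library. It lay with HPC-1 on the first principal component (34.7, other LT-HSC -91.2 to -20.1), and without it in the model 2092 genes were called in the comparison in place of 1868. The part of these missing genes in the results was not tested, and calls without single libraries are given with most lists below.

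**Figure D1:**
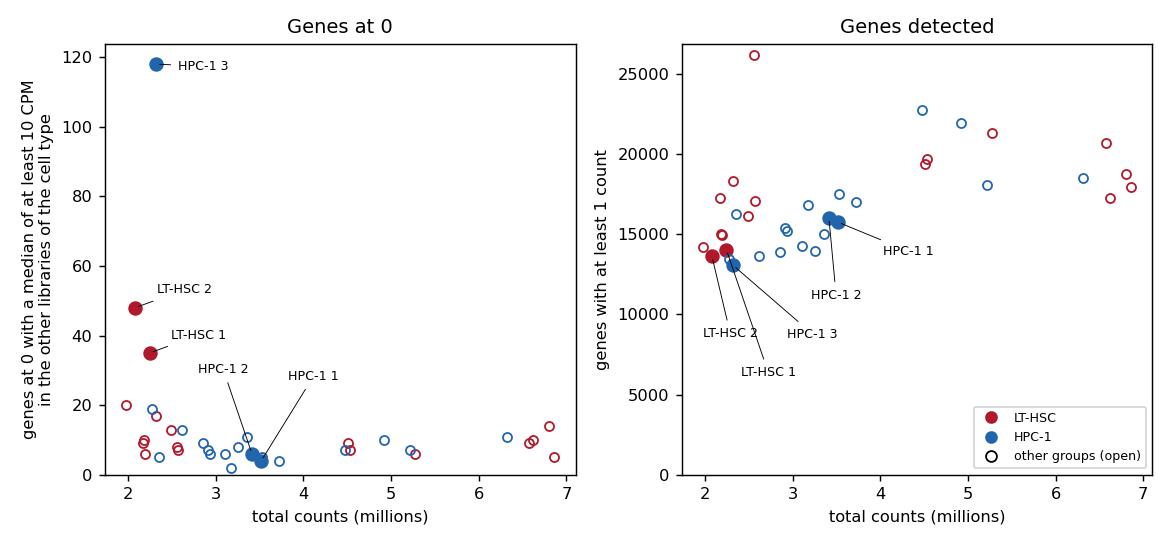
Genes at 0 that the other libraries of the cell type hold at a median of at least 10 CPM (left) and genes with at least 1 count (right), each against total counts, 1 point per library, with the 5 compared libraries filled and all others open. HPC-1 replicate 3 has 118 genes at 0 and the LT-HSC libraries have 35 and 48, where no other library has more than 20.

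The genes targeted in the strain and in the series were read first. Apoe (ENSMUSG00000002985, chr7:19696109-19699188 in mm10), the gene disrupted in every mouse of the series, gave 27.4 and 22.9 in LT-HSC against 2.99, 5.71 and 0 CPM in HPC-1. Both LT-HSC libraries lay above all HPC-1 libraries (log2 fold change 3.05 ± 0.74, adjusted p = 0.00617), so counts still fall on this gene. The Apoe call was lost with only the groups compared in the fit. The counts are summed over the whole gene, so they do not show whether the transcript is intact, and they are no check on the knockout. Il27ra (ENSMUSG00000005465, chr8:84030294-84042589), which encodes the ligand-binding subunit of the IL-27 receptor, gave 42.9 and 51.8 in LT-HSC against 10.2, 8.88 and 6.07 CPM in HPC-1. The groups did not overlap (log2 fold change 2.48 ± 0.43, adjusted p = 0.00035), and leaving out any of the 5 libraries kept the call. Both intact LT-HSC values exceeded those of heterozygous (25.4 to 32.8 CPM) and knockout (11.7 to 19.3 CPM) LT-HSC given Ang II, 4 libraries each, so the order followed the labels although the knockout still gave counts. In HPC-1 the genotypes overlapped, with 5.46 to 16.5 CPM in heterozygotes and 4.64 to 9.04 CPM in knockouts.

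The sort used 4 surface proteins, and the RNA of their genes is a check of the labels, not a result. Slamf1 (ENSMUSG00000015316, chr1:171767127-171801184) encodes CD150, on which LT-HSC were gated in, and gave 41.4 and 21.9 in LT-HSC against 1.796, 1.59 and 8.23 CPM in HPC-1. LT-HSC were higher in every library, though HPC-1 replicate 3 lay nearer to them than its group mates (log2 fold change 3.10 ± 0.86, adjusted p = 0.02). The Slamf1 call was lost without LT-HSC replicate 1 (adjusted p = 0.139), without HPC-1 replicate 1 (0.0759) and without HPC-1 replicate 2 (0.0745). Cd48 (ENSMUSG00000015355, chr1:171682009-171705258), on which HPC-1 were gated in, was at 0 in both LT-HSC libraries and 61.96, 57.1 and 59.4 CPM in HPC-1. With a floor of 3 counts in each library, Cd48 was at least 40.5-fold lower in LT-HSC (adjusted p = 0.00647), and the call was lost without LT-HSC replicate 1 (0.0597) or replicate 2 (0.0536). By edgeR there was no call in the main fit for the genes of the proteins that both gates required: Kit, the receptor for stem cell factor, stood at 892 and 851 in LT-HSC against 851, 691 and 654 CPM in HPC-1 (log2 fold change 0.25 ± 0.24, adjusted p = 0.559), and Ly6a, which encodes Sca-1, at 6.74 and 28.9 in LT-HSC against 4.49, 2.85 and 8.23 CPM in HPC-1 (log2 fold change 1.79 ± 0.65, adjusted p = 0.0695). Ly6a values overlapped between the groups, and without LT-HSC replicate 1 its adjusted p was 0.0289, and DESeq2 called it higher (0.0401). Floors and intervals here and below cover counting error only, and every p measures the spread between samples, which the labels do not tie to separate animals.

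Mpo (ENSMUSG00000009350, chr11:87793581-87804413) encodes myeloperoxidase, the main enzyme of neutrophil granules, and marks cells that have entered the myeloid path. It gave 1.44 and 4.48 in LT-HSC against 4118, 5364 and 5638 CPM in HPC-1. The groups were far apart (log2 fold change -10.72 ± 2.65, adjusted p = 0.0109), but LT-HSC held 12 counts of the gene in all, so the size is uncertain. Without LT-HSC replicate 1 the log2 fold change was -10.13 and the call was lost (adjusted p = 0.102), and without replicate 2 it was -11.73 and the call was lost too (0.0779). In sorted bulk samples, fewer cells of a type and less RNA per cell cannot be told apart, which holds for Mpo and for every gene below. The markers thus followed the labels in all 5 libraries.

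**Figure D2:**
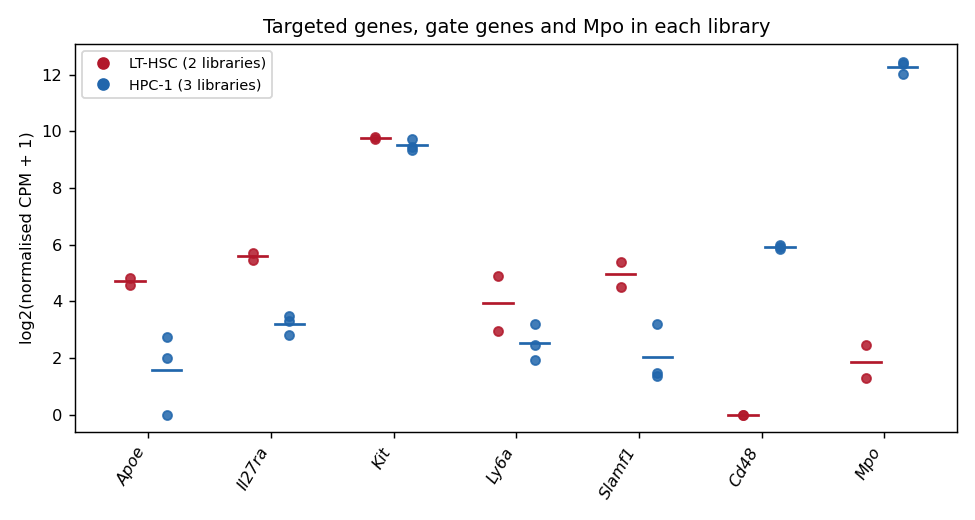
Normalised CPM on the log2 scale (1 added) for Apoe, Il27ra, the 4 genes of the sort gate and Mpo, 1 point per library and a line at the mean of the points. Cd48 is at 0 in both LT-HSC libraries, Kit lies between 654 and 892 CPM in all 5, and Ly6a overlaps between the groups.

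Slamf1 and Cd48 belong to a cluster of SLAM family receptors on chromosome 1, of which 7 of 9 genes were tested and Slamf7 and Slamf9 were at 0 in all 5 libraries. By edgeR the calls were those of the gate genes, Slamf1 higher and Cd48 lower. DESeq2 called 1 gene of the list higher and 3 lower, edgeR without a filter and edgeR with only libraries under 4 M counts did the same, and with the Y-linked covariate it called 2 each way. Cd84 was 142 and 114 in LT-HSC against 88.3, 90.1 and 60.7 CPM in HPC-1 (adjusted p = 0.108) and Ly9 was 7.704 and 12.9 in LT-HSC against 30.8, 31.7 and 29.5 CPM in HPC-1 (adjusted p = 0.0665). Cd244a, a receptor for CD48, gave 6.26 and 1.49 in LT-HSC against 56.6, 57.7 and 21.7 CPM in HPC-1 (adjusted p = 0.104). For all 3 the groups did not overlap, but the differences did not pass edgeR's test in the main fit.

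Of the 18013 genes tested, 1868 differed at an adjusted p under 0.05, which is 10.4%. Of these, 968 were higher in LT-HSC (5.37% of the genes tested) and 900 were lower (5%), and 4609 genes had an unadjusted p under 0.05. The median log2 fold change over all genes tested was 0.00 and the median size of a called change was 1.79. The count depends on the fit: with only the groups compared it was 611 (339 higher and 272 lower), and limma-voom called 437 lower. With a block for replicate number the count was 1089 (532 higher and 557 lower), which held 958 of the 1868. It also leans on single libraries: it was 1113 without LT-HSC replicate 1 and 1124 without HPC-1 replicate 3, and between 1297 and 1600 without each of the others. Without the same libraries the higher calls were 568 and 542 and the lower calls 545 and 582, and the lower calls were 600 without HPC-1 replicate 2. The lists below are described by edgeR's calls in each direction and their median, beside these values over all genes. Counts given as without 1 LT-HSC or 1 HPC-1 leave out each library in turn, in replicate order. In 36 cases a list had 0 calls in a direction, and over those cases 17 genes had an unadjusted p under 0.05, DESeq2 called 6 and limma-voom 2. Among the 900 genes called lower, 104 (11.6%) were at 0 in both LT-HSC libraries, and 64 of the 104 had counts in all 8 LT-HSC libraries of the heterozygous and knockout mice given Ang II. In those mice the same share was 2.29% of the lower calls for the heterozygotes and 0.709% for the knockouts, where a gene had to be at 0 in 4 LT-HSC libraries and not in 2, which makes the share smaller by construction. Among the 968 higher calls, 83 (8.57%) were at 0 in all 3 HPC-1 libraries, and 2 of the 83 had counts in all 8 other Ang II HPC-1 libraries. The part of the missing genes of the LT-HSC libraries in the lower calls was not tested.

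The genes that define LT-HSC in the literature on these cells made up a list of 30, of which 23 were called higher and 0 lower, with a median log2 fold change of 3.04 against 0.00 for all genes. The list and its 23 calls include Slamf1, whose protein was gated on and which is no result. No gene of the list had an estimate below 0. Mecom, a zinc finger factor without which stem cells are not maintained, gave 281 and 195 in LT-HSC against 28.7, 14.6 and 5.201 CPM in HPC-1 (log2 fold change 3.84 ± 0.68, adjusted p = 0.000923). Procr, which encodes the protein C receptor used to isolate the most durable stem cells, gave 38.5 and 24.9 in LT-HSC against 2.99, 4.12 and 0 CPM in HPC-1 (log2 fold change 3.64 ± 0.74, adjusted p = 0.00193). Fgd5, an exchange factor for Cdc42 whose reporter marks stem cells, gave 113 and 86.6 in LT-HSC against 13.5, 13 and 6.93 CPM in HPC-1 (log2 fold change 3.14 ± 0.57, adjusted p = 0.000963). Each of these genes was higher in both LT-HSC libraries than in any HPC-1 library, and HPC-1 replicate 3 held the lowest value of each. Hlf, a transcription factor that restrains cycling, gave 370.3 and 312 in LT-HSC against 97.9, 73.6 and 83.6 CPM in HPC-1 (log2 fold change 2.00 ± 0.42, adjusted p = 0.00286). Meis1, a partner of HOX proteins and the gene of the list with the most counts, gave 780.5 and 541 in LT-HSC against 249.6, 248 and 228 CPM in HPC-1 (log2 fold change 1.45 ± 0.25, adjusted p = 0.00041). Vwf, which encodes the von Willebrand factor of platelets and endothelium and marks platelet-biased stem cells, gave 393 and 386 in LT-HSC against 7.18, 2.54 and 0.867 CPM in HPC-1 (log2 fold change 6.69 ± 1.12, adjusted p = 0.000564). The Vwf groups lay furthest apart in this list, with under 8 CPM in each HPC-1 library. Hoxb5 was called too (log2 fold change 5.09 ± 1.23, adjusted p = 0.00617), but rests on LT-HSC replicate 1, with 24.1 and 0.995 in LT-HSC against 0.299, 0.634 and 0 CPM in HPC-1. The count was 18 and 20 without 1 LT-HSC and 21, 20 and 21 without 1 HPC-1, and 16 of the 23 were called in all 5 cases. In the heterozygous and knockout mice 27 and 26 of the 30 were called higher.

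Transcription factors that stem cells depend on formed a list of 30, several of them also among the markers. Of these 16 were called higher and 1 lower (median 0.77). Mycn gave 269.6 and 258 in LT-HSC against 20.95, 13.95 and 48.97 CPM in HPC-1 (log2 fold change 3.26 ± 0.68, adjusted p = 0.0031) and its relative Myc, which drives growth and division, ran the other way at 244 and 218 in LT-HSC against 471, 508 and 644 CPM in HPC-1 (log2 fold change -1.23 ± 0.34, adjusted p = 0.0207). The paralogs thus separated the groups in opposite directions, with no overlap for either. Gata2 (409.7 and 519 in LT-HSC against 219, 191 and 167 CPM in HPC-1, log2 fold change 1.27 ± 0.32, adjusted p = 0.00974), Tal1 (0.72), Lmo2 (0.71) and Fli1 (1.13), which act in a shared complex of stem and progenitor cells, were all higher by smaller log2 fold changes. Egr1, an immediate early factor that keeps stem cells quiescent and in place, gave 158 and 145 in LT-HSC against 16.2, 12.1 and 5.201 CPM in HPC-1 (log2 fold change 3.73 ± 1.09, adjusted p = 0.0296). The gene called lower was Ikzf2, the lymphoid factor Helios, with 61.6 and 106 in LT-HSC against 169, 163 and 130.02 CPM in HPC-1 (log2 fold change -0.88 ± 0.29, adjusted p = 0.0409). Lower calls of the list were 0 and 1 without 1 LT-HSC and 0, 0 and 1 without 1 HPC-1, and 0 under RLE and upper-quartile scaling. Runx1, from which the first blood stem cells arise, was among the 13 of the 30 not called, with 277 and 310.1 in LT-HSC against 285, 279 and 196 CPM in HPC-1 (log2 fold change 0.21 ± 0.19, adjusted p = 0.516). The higher calls numbered 9 and 12 without 1 LT-HSC and 13, 15 and 12 without 1 HPC-1, and 8 were common to all 5 omissions.

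Megakaryocytes, the parents of platelets, share a program with the most primitive stem cells. Of 25 genes of that program 24 were tested, 13 were called higher and 0 lower, and the median was 2.03, or 1.69 with the gene at 0 in HPC-1 at its bound. Itga2b, the alpha subunit of the fibrinogen receptor (CD41), gave 378 and 485 in LT-HSC against 137, 112 and 45.1 CPM in HPC-1 (log2 fold change 2.13 ± 0.38, adjusted p = 0.000717), and its partner Itgb3 gave 167 and 223 in LT-HSC against 28.7, 29.2 and 42.04 CPM in HPC-1 (log2 fold change 2.56 ± 0.53, adjusted p = 0.00305). Pf4, a platelet chemokine, gave 53.9 and 58.7 in LT-HSC against 0.599, 2.22 and 0 CPM in HPC-1 (log2 fold change 5.76 ± 1.14, adjusted p = 0.0022). Clu, clusterin, gave 38.5 and 40.8 in LT-HSC against 0.599, 0.951 and 0 CPM in HPC-1 (log2 fold change 6.06 ± 1.27, adjusted p = 0.0031). In each of the 4 genes the LT-HSC libraries were close to each other and far above HPC-1. Zfpm1, the GATA1 cofactor FOG1 and the gene of the list with the most counts, gave 667 and 633 in LT-HSC against 164, 135 and 141 CPM in HPC-1 (log2 fold change 2.15 ± 0.42, adjusted p = 0.00188). Not every platelet gene of the list had counts to compare: Ppbp was 3.37 and 0 CPM in LT-HSC and at 0 in all 3 HPC-1 libraries, and Gp6 and Slc6a4 were at 0 in all 5 libraries. Of the 13 calls, 11 held in each of the 5 omissions.

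Imprinted genes, expressed from the allele of a single parent, form a network tied to fetal growth, and several mark dormant stem cells. Of 24 listed, 23 were found and 21 tested, with 10 called higher and 0 lower and a median of 3.56 (3.47 with genes at 0 at their bound). Meg3, the maternal noncoding RNA of the Dlk1 domain, gave 88.6 and 93.1 in LT-HSC against 2.095, 1.27 and 0 CPM in HPC-1 (log2 fold change 6.18 ± 1.28, adjusted p = 0.00299), and its neighbour Rian gave 13.5 and 32.8 in LT-HSC against 0, 0.951 and 0 CPM in HPC-1 (log2 fold change 5.96 ± 1.42, adjusted p = 0.00815). From the paternal allele of that domain Dlk1 gave 13 and 8.46 in LT-HSC against 0.299, 0.634 and 0 CPM in HPC-1 (log2 fold change 4.88 ± 1.27, adjusted p = 0.0107). Grb10, an adaptor that damps insulin signalling, gave 176 and 154 in LT-HSC against 20.7, 20.3 and 2.6 CPM in HPC-1 (log2 fold change 3.47 ± 0.89, adjusted p = 0.0138). Igf2r, which clears IGF2, gave 45.7 and 38.8 in LT-HSC against 5.99, 4.12 and 9.101 CPM in HPC-1 (log2 fold change 2.74 ± 0.55, adjusted p = 0.00166). Both LT-HSC libraries exceeded every HPC-1 library for each of these 5 genes, at low counts for Dlk1 and Rian. Mirg was called on LT-HSC replicate 1 alone, being 7.704 and 0 CPM in LT-HSC and at 0 in all 3 HPC-1 libraries (at least 3.67-fold, adjusted p = 0.019). Higher calls in this list were 7 and 7 without 1 LT-HSC and 7, 8 and 6 without 1 HPC-1, and 4 held in all 5 cases (Ndn, Meg3, Igf2r, Sgce).

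Of the Hoxa and Hoxb genes, which set stem cell identity along with body axis, 17 of 21 were tested, 3 were called higher (Hoxa9, Hoxb3 and Hoxb5) and 0 lower, and the median was 0.75. Hoxb3 gave 39.5 and 15.4 in LT-HSC against 4.49, 3.81 and 1.3 CPM in HPC-1 (log2 fold change 3.06 ± 0.76, adjusted p = 0.00744) and Hoxa9 94.9 and 49.8 in LT-HSC against 32.03, 48.2 and 26.9 CPM in HPC-1 (log2 fold change 1.01 ± 0.30, adjusted p = 0.0242). LT-HSC replicate 1 was the higher of its group in all 3, and without it edgeR called 0 of the list higher and 1 lower. DESeq2 called 6 higher, limma-voom 1 and edgeR with no filter 7. With only the groups compared edgeR called 0, and with a block for replicate number 1. The higher calls were 0 and 4 without 1 LT-HSC and 2, 4 and 2 without 1 HPC-1.

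The genes higher in LT-HSC with the smallest p, among those with a mean of at least 20 CPM in the higher group and no overlap, included Cttn, P3h2, Zfp462, Agpat3, Ccdc60, Zfp532, Esam, Mylk, Tie1, Col16a1 and Tuba8. Cttn (ENSMUSG00000031078, chr7:144435733-144471009), cortactin, which binds branched actin filaments at the cell edge, gave 163 and 142 in LT-HSC against 23.6, 23.2 and 13.4 CPM in HPC-1 (log2 fold change 2.91 ± 0.33, adjusted p = 1.12e-06). P3h2 (ENSMUSG00000038168, chr16:25959288-26105784), a prolyl hydroxylase of collagens, was 32.3 and 21.4 CPM in LT-HSC and at 0 in all 3 HPC-1 libraries, which is at least 25.6-fold higher in LT-HSC (adjusted p = 0.000182). The next by p, the zinc finger gene Zfp462 (ENSMUSG00000060206, chr4:54945048-55083563), gave 51.5 and 91.1 in LT-HSC against 9.28, 12.4 and 11.3 CPM in HPC-1 (log2 fold change 2.70 ± 0.42, adjusted p = 0.000193). LT-HSC libraries were above all HPC-1 libraries for each of these genes by construction of the choice. Ccdc60, with a coiled coil and little known function, had 33.2 and 31.9 in LT-HSC against 0.299, 0.634 and 0 CPM in HPC-1, a ratio of 95.5 with a counting interval of 32.0 to 469 (adjusted p = 0.000193). Agpat3, an acyltransferase of phospholipid synthesis, gave 126 and 98.05 in LT-HSC against 7.78, 5.71 and 0.433 CPM in HPC-1 (log2 fold change 4.51 ± 0.64, adjusted p = 0.000193).

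Esam, an adhesion molecule of endothelium, platelets and stem cells, gave 60.7 and 57.2 in LT-HSC against 5.39, 5.07 and 1.3 CPM in HPC-1 (log2 fold change 3.85 ± 0.57, adjusted p = 0.000193). Tie1, an orphan receptor that works with Tek, gave 136 and 191 in LT-HSC against 36.2, 25.4 and 22.1 CPM in HPC-1 (log2 fold change 2.54 ± 0.38, adjusted p = 0.000193), and Tek itself, the angiopoietin receptor, gave 87.6 and 60.2 in LT-HSC against 21.6, 13 and 0 CPM in HPC-1 (log2 fold change 2.63 ± 0.71, adjusted p = 0.0187). Mylk (myosin light chain kinase), Col16a1 (a fibril-associated collagen), Tuba8 (an alpha tubulin) and Zfp532 had log2 fold changes of 3.12, 3.68, 2.58 and 3.63. Apart from Tek, the calls of these genes and of those in the paragraph above held under every alternative tried, each library left out included.

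**Figure D3:**
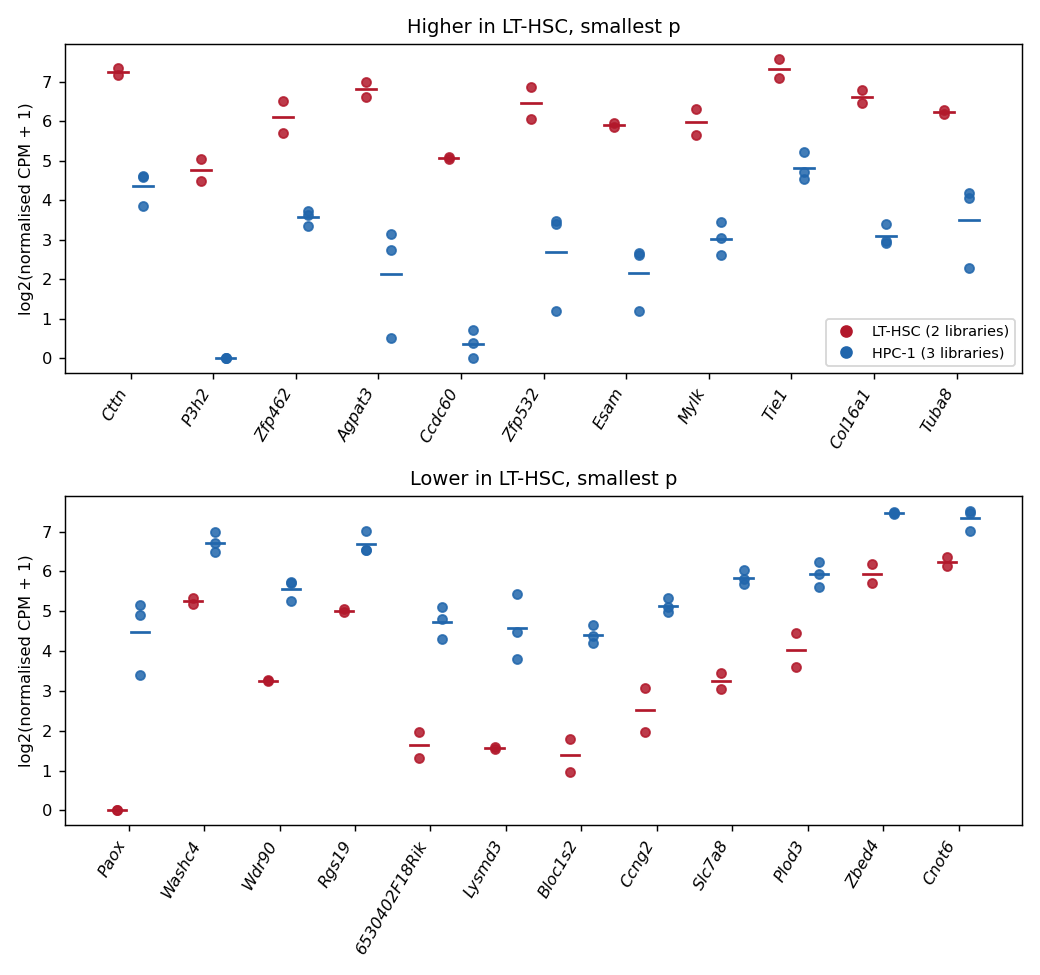
Normalised CPM on the log2 scale (1 added) for the genes named above as higher in LT-HSC with the smallest p (top) and the 12 lower (bottom), 1 point per library and a line at the mean of the points. P3h2 is at 0 in the 3 HPC-1 libraries and Paox in the 2 LT-HSC libraries.

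On the HPC-1 side, a list of 28 genes of HPC-1 and multipotent progenitors had 16 called lower in LT-HSC and 0 higher, the gate gene Cd48 counted among the 16, and every estimate of the list was below 0. The median was -4.45, or -3.60 with the 8 genes at 0 in LT-HSC at their bound. Cd34, whose protein appears as stem cells lose long-term potential, gave 92.9 and 150.3 in LT-HSC against 614, 612 and 706 CPM in HPC-1 (log2 fold change -2.40 ± 0.63, adjusted p = 0.0155). Flt3, the cytokine receptor that marks lymphoid-primed progenitors, gave 26.5 and 18.4 in LT-HSC against 268, 205 and 256 CPM in HPC-1 (log2 fold change -3.43 ± 1.02, adjusted p = 0.031). Emb, embigin, gave 22.6 and 23.9 in LT-HSC against 240.4, 298 and 283 CPM in HPC-1 (log2 fold change -3.56 ± 0.72, adjusted p = 0.00261), and the chromatin organiser Satb1 gave 12.04 and 5.47 in LT-HSC against 207, 227 and 221 CPM in HPC-1 (log2 fold change -4.63 ± 1.04, adjusted p = 0.00581). All 3 HPC-1 libraries lay well above both LT-HSC libraries for these 4 genes. Fewer calls were made in smaller groups: 3 and 2 without 1 LT-HSC and 13, 13 and 11 without 1 HPC-1, and 1 of the 16 (Emb) was called in all 5 cases. Leaving out an LT-HSC library leaves 1 in that group, whose spread is then taken from the other groups of the model. With only the groups compared edgeR called 19 of the list lower and with no filter 23, and DESeq2 called 22. Limma-voom called 10 lower and edgeR with a block for replicate number 6. In the heterozygous and knockout mice 24 and 16 of the 28 were called lower.

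Granule genes of neutrophils and monocytes are switched on in waves, the azurophil set first. Of 20 listed, 6 were called lower in LT-HSC and 0 higher, and the median of -5.88 became -2.15 with the 9 genes at 0 in a group at their bound. The serine proteases of the first wave were at 0 in LT-HSC or far below HPC-1. Ctsg, cathepsin G, was at 0 in both LT-HSC libraries and 220.00, 309 and 248 CPM in HPC-1 (at least 176-fold lower, adjusted p = 0.0166), and Elane, neutrophil elastase, was at 0 in both LT-HSC libraries and 77.8, 134 and 143 CPM in HPC-1 (at least 80.3-fold lower, adjusted p = 0.0443). Prtn3, proteinase 3, gave 28.9 and 26.9 in LT-HSC against 177, 219 and 337 CPM in HPC-1 (log2 fold change -3.13 ± 0.72, adjusted p = 0.00658), so it alone of the 3 proteases had counts in LT-HSC. The summed level of the list was 1567 and 1585 CPM in LT-HSC and 7439, 9578 and 9069 CPM in HPC-1. Mpo held the most counts of the list in HPC-1. With no filter edgeR called 13 lower. Calls in this list numbered 0 and 0 without 1 LT-HSC and 4, 3 and 3 without 1 HPC-1.

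Factors that choose between lineages gave calls in both directions. Of 27 listed 26 were tested, with 3 higher, 7 lower and a median of 0.05. Cebpa, which commits cells to granulocytes and monocytes, gave 1.44 and 0 in LT-HSC against 79.6, 120.2 and 84.5 CPM in HPC-1 (log2 fold change -6.95 ± 1.59, adjusted p = 0.00658). Irf8, the factor of monocytes and dendritic cells, gave 3.85 and 3.48 in LT-HSC against 106, 152 and 241 CPM in HPC-1 (log2 fold change -5.49 ± 1.501, adjusted p = 0.0205). Spi1 (PU.1), which both need, gave 53.4 and 25.4 in LT-HSC against 91.6, 115 and 104 CPM in HPC-1 (log2 fold change -1.39 ± 0.44, adjusted p = 0.0411). These 3 were lower in LT-HSC with no overlap, the gap being widest for Cebpa. Ikzf1, Ikaros, which primes lymphoid genes, was lower as well (117 and 104 in LT-HSC against 256, 257 and 176 CPM in HPC-1, log2 fold change -1.05 ± 0.22, adjusted p = 0.00172). Bcl11a, which represses fetal globin and is needed for lymphoid cells, ran the other way with 535 and 484 in LT-HSC against 339, 265 and 136 CPM in HPC-1 (log2 fold change 1.05 ± 0.28, adjusted p = 0.0124), with a wide spread inside HPC-1. Ebf1 and Pax5, which commit B cells, were at 0 in all 5 libraries. Calls on the lower side numbered 4 and 1 without 1 LT-HSC and 5, 5 and 5 without 1 HPC-1, and on the higher side 2 and 3 without 1 LT-HSC and 4, 3 and 2 without 1 HPC-1.

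Early lymphoid genes had 14 of 18 tested, 4 called lower (Flt3, Dntt, Cnn3 and Satb1) and 0 higher, with a median of -3.66, or -2.12 with bounds. Dntt, the terminal transferase that adds bases at antigen receptor joints, was at 0 in both LT-HSC libraries and 36.8, 32.3 and 89.3 CPM in HPC-1 (at least 35.96-fold lower in LT-HSC, adjusted p = 0.0337). Ighm, the heavy chain gene whose unrearranged locus is transcribed in lymphoid-primed progenitors, gave 0 and 8.46 in LT-HSC against 70.9, 84.7 and 163 CPM in HPC-1 (log2 fold change -4.65 ± 1.83, adjusted p = 0.108), apart in value but not called. In the omissions the calls of the list were 2 and 0 without 1 LT-HSC and 3, 4 and 1 without 1 HPC-1. For the mast cell, basophil and eosinophil list 12 of 14 genes were tested and 2 called lower. Cpa3, the mast cell carboxypeptidase, gave 6.74 and 2.99 in LT-HSC against 87.1, 60.9 and 32.1 CPM in HPC-1 (log2 fold change -3.62 ± 1.03, adjusted p = 0.0249) and Ms4a2, a chain of the IgE receptor, was at 0 in both LT-HSC libraries and 9.88, 8.56 and 17.3 CPM in HPC-1 (at least 8.12-fold lower, adjusted p = 0.0302). Both were lower in each LT-HSC library, and no gene of the list had an estimate above 0 (median -5.86, or -2.79 with bounds). DESeq2 called 5 lower and edgeR with no filter 6. The calls of this list numbered 0 and 0 without 1 LT-HSC and 1, 2 and 1 without 1 HPC-1. The erythroid and globin list of 17 had no common direction (median -0.05, near 0.00 under the other scalings and 0.53 by limma-voom). The list leaned on single libraries: its median was 0.61 and -0.68 without LT-HSC replicates 1 and 2, and 0.59 without HPC-1 replicate 3. Its call was the transferrin receptor Tfrc (86.7 and 54.7 in LT-HSC against 224, 225 and 177 CPM in HPC-1, log2 fold change -1.56 ± 0.50, adjusted p = 0.0451), a call that was lost in each of the 5 omissions, and with no filter 3 genes of the list were called each way.

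The 12 genes lower in LT-HSC with the smallest p, by the same choice, were Paox, Washc4, Wdr90, Rgs19, 6530402F18Rik, Lysmd3, Bloc1s2, Ccng2, Slc7a8, Plod3, Zbed4 and Cnot6, and none is on the progenitor, granule or lymphoid lists. Paox (ENSMUSG00000025464, chr7:140115799-140137224), a polyamine oxidase, was at 0 in both LT-HSC libraries and 34.7, 29.2 and 9.53 CPM in HPC-1, at least 16.7-fold lower in LT-HSC (adjusted p = 4.95e-05). Washc4 (ENSMUSG00000034560, chr10:83543752-83596473), a subunit of the WASH complex that branches actin on endosomes, gave 39.5 and 35.3 in LT-HSC against 88.6, 103 and 125 CPM in HPC-1 (log2 fold change -1.496 ± 0.21, adjusted p = 7.67e-05). Wdr90 (ENSMUSG00000073434, chr17:25844771-25861501), a centriole protein, gave 8.67 and 8.46 in LT-HSC against 37.1, 52.6 and 51.6 CPM in HPC-1 (log2 fold change -2.45 ± 0.35, adjusted p = 7.67e-05). Rgs19, which switches off G proteins downstream of receptors, gave 32.3 and 30.4 in LT-HSC against 92.5, 92.3 and 128 CPM in HPC-1 (log2 fold change -1.73 ± 0.26, adjusted p = 0.000193). Lysmd3, a membrane protein with a LysM domain, gave 1.93 and 1.99 in LT-HSC against 21.3, 13 and 42.04 CPM in HPC-1 (log2 fold change -3.67 ± 0.58, adjusted p = 0.000193). Bloc1s2, a subunit of complexes that sort and move lysosomes, gave 0.963 and 2.49 in LT-HSC against 19.8, 24.1 and 17.3 CPM in HPC-1 (log2 fold change -3.55 ± 0.56, adjusted p = 0.000193). LT-HSC values of Lysmd3 and Bloc1s2 rest on 8 and 7 counts, and HPC-1 varied most for Lysmd3. Ccng2, an atypical cyclin of resting cells, gave 2.89 and 7.47 in LT-HSC against 33.5, 30.8 and 39.01 CPM in HPC-1 (log2 fold change -2.73 ± 0.46, adjusted p = 0.000296), and the amino acid transporter Slc7a8 gave 7.22 and 9.95 in LT-HSC against 50.9, 54.9 and 64.6 CPM in HPC-1 (log2 fold change -2.72 ± 0.46, adjusted p = 0.000311). Plod3 (a collagen lysyl hydroxylase), Zbed4 (a zinc finger protein), Cnot6 (a deadenylase of messenger RNA) and the noncoding transcript 6530402F18Rik had log2 fold changes of -1.92, -1.52, -1.11 and -3.57. The calls of these genes held with each library left out. With limma-voom Lysmd3 (adjusted p = 0.0688) and Ccng2 (0.088) were not called. Wdr90, Lysmd3, Bloc1s2, Ccng2 and Cnot6 were not called by edgeR in heterozygous mice (adjusted p = 0.18, 0.986, 0.252, 0.109 and 0.351). Paox, Washc4, Rgs19, Plod3 and Zbed4 were called lower in both other genotypes. By edgeR the interaction with genotype, described below, passed for Paox, Wdr90 and Lysmd3 against both genotypes and for Bloc1s2 against heterozygotes. Wdr90 gave 25.8 to 36.4 CPM in heterozygous and 28.1 to 38.8 CPM in knockout LT-HSC.

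Cell division genes were next, because cycling is what most separates these populations in the textbook view. Of 35 genes that license and copy DNA, 13 were called lower in LT-HSC and 0 higher, 34 had estimates below 0, and the median was -0.89. The MCM proteins form the helicase that opens replication origins. Mcm6, the gene of the list with the most counts, gave 308 and 427 in LT-HSC against 701, 698 and 650.1 CPM in HPC-1 (log2 fold change -0.89 ± 0.26, adjusted p = 0.0232). Mcm5 gave 111 and 149.8 in LT-HSC against 279.9, 316 and 288 CPM in HPC-1 (log2 fold change -1.18 ± 0.37, adjusted p = 0.0363) and Mcm7 gave 199 and 247 in LT-HSC against 415, 454 and 452 CPM in HPC-1 (log2 fold change -0.98 ± 0.30, adjusted p = 0.0331). For these 3 every HPC-1 library lay above both LT-HSC libraries. Pole, the leading strand polymerase, gave 98.7 and 109 in LT-HSC against 219, 242 and 279.98 CPM in HPC-1 (log2 fold change -1.25 ± 0.27, adjusted p = 0.00198). Rrm2, the small subunit of ribonucleotide reductase, gave 18.8 and 34.8 in LT-HSC against 78.7, 91.01 and 97.1 CPM in HPC-1 (log2 fold change -1.73 ± 0.54, adjusted p = 0.0393). Gmnn, geminin, which blocks a second licensing, gave 6.74 and 4.98 in LT-HSC against 20.1, 36.8 and 22.5 CPM in HPC-1 (log2 fold change -2.17 ± 0.50, adjusted p = 0.0041). In the omissions the count of 13 became 3 and 4 without 1 LT-HSC and 9, 4 and 5 without 1 HPC-1, with 1 gene (Pole) called in all 5. In the other genotypes 15 (heterozygous) and 17 (knockout) were called lower.

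Mitotic genes numbered 38, with 6 called lower, 0 higher, 37 estimates below 0 and a median of -0.84. Kif20a, a kinesin of the dividing midzone, gave 9.63 and 17.9 in LT-HSC against 59.3, 73.6 and 137 CPM in HPC-1 (log2 fold change -2.70 ± 0.59, adjusted p = 0.0041). Cks2, a partner of cyclin-dependent kinases, gave 12.04 and 6.47 in LT-HSC against 45.5, 48.2 and 59.8 CPM in HPC-1 (log2 fold change -2.46 ± 0.46, adjusted p = 0.000598). Top2a, the topoisomerase that untangles chromosomes, gave 361 and 489.8 in LT-HSC against 793, 971 and 1116 CPM in HPC-1 and was not called (log2 fold change -1.17 ± 0.43, adjusted p = 0.0848). Mki67, the gene of the list with the most counts, gave 1227 and 1562 in LT-HSC against 1948, 2321 and 3427 CPM in HPC-1 (log2 fold change -0.88 ± 0.47, adjusted p = 0.244), so both LT-HSC libraries held substantial proliferation transcripts and lay below HPC-1 without passing the test. In the heterozygous and knockout mice 20 and 21 were called lower, with medians of -1.01 and -0.95. The number in the intact mice depends on the fit: edgeR with no filter called 19 lower, with only libraries under 4 M counts 9, DESeq2 7 and limma-voom 2. The number here was 1 and 9 without 1 LT-HSC and 6, 5 and 5 without 1 HPC-1. Among 14 cyclins and cyclin-dependent kinases 2 were lower, Cdk6 (268 and 319 in LT-HSC against 652, 593 and 612 CPM in HPC-1, log2 fold change -1.08 ± 0.34, adjusted p = 0.0415), whose level sets how fast stem cells leave rest, and Cdk4 (67.4 and 84.1 in LT-HSC against 175, 192 and 129.6 CPM in HPC-1, log2 fold change -1.13 ± 0.30, adjusted p = 0.0116). This count was 0 and 3 without 1 LT-HSC and 1, 0 and 1 without 1 HPC-1. Of the cyclin-dependent kinase inhibitors 6 of 7 were tested and edgeR called 0 in the main fit, and it called 1 higher with no filter or without HPC-1 replicate 2. Cdkn1c, which holds stem cells in rest, gave 10.1 and 17.9 in LT-HSC against 0.599, 0.634 and 8.23 CPM in HPC-1 (log2 fold change 2.22 ± 1.19, adjusted p = 0.239). Cdkn1a, the p21 gene, gave 0.481 and 1.99 in LT-HSC against 5.99, 6.98 and 11.3 CPM in HPC-1 (log2 fold change -2.67 ± 1.05, adjusted p = 0.0965). Neither of the 2 genes overlapped between the groups, with Cdkn1c on the LT-HSC side and Cdkn1a on the HPC-1 side. Histone genes of the replication-dependent kind, whose near-identical copies make the counts uncertain, matched for 26 of 54, and edgeR called 0 of them (median -0.52). At an unadjusted p under 0.05 the inhibitors had 1 gene higher and 2 lower and the histones 0 and 2, DESeq2 called 0 and 1 inhibitors and 0 histones, and limma-voom 1 and 0 inhibitors and 0 histones. With no filter edgeR called 8 histones lower, and with only the groups compared or only libraries under 4 M counts 1.

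Some promoters of the licensing genes hold a known short sequence, the site read by E2F proteins, which switch on S-phase genes. RefSeq promoters of GRCm38.p6, from 250 bases before to 50 after the gene start, were matched for 28 of the 35 genes and searched on both strands for TTTCGCGC, TTTGGCGC and TTTCCCGC. At least 1 of the motifs was in the promoter of 13 of the 28 genes (46.4%), against 606 of all 32851 promoters (1.84%). Counted by gene, with any promoter of it, the latter was 573 of 27025 (2.12%). The share was 44.4% (4 of 9) among genes called lower and 47.4% (9 of 19) among those not called, which lie close together. A match describes the letters and does not show binding. The windows of 60 bases around the first match are printed for the 4 genes called lower, 5' to 3' on the strand of the gene with the matches in capitals, because they show the shared core: Mcm5 at chr8:75109330-75109389 (plus strand), Mcm6 at chr1:128359782-128359841 (minus strand), Mcm7 at chr5:138172015-138172074 (minus strand) and Cdc6 at chr11:98907987-98908046 (plus strand).
Mcm5: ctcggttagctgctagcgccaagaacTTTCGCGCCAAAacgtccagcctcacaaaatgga
Mcm6: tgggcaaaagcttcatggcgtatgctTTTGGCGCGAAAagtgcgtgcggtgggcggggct
Mcm7: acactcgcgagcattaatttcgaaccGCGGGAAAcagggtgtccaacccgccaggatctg
Cdc6: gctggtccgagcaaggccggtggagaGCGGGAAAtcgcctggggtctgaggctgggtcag
In the Mcm5 and Mcm6 windows matches on both strands overlap in a shared run, while the Mcm7 and Cdc6 windows hold TTTCCCGC read on the other strand.

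Genes of energy metabolism were read next. Of the 13 genes encoded by mitochondrial DNA 0 are in the deposited table under the names searched, so nothing can be said of them. Of 74 nuclear genes of oxidative phosphorylation 11 were called lower in LT-HSC and 0 higher, 63 estimates were below 0, and the median was -0.51. Ndufa10, a subunit of complex I, gave 53.4 and 47.3 in LT-HSC against 98.5, 107 and 102 CPM in HPC-1 (log2 fold change -1.02 ± 0.22, adjusted p = 0.00198). Sdha, the catalytic subunit of complex II, gave 164 and 170.2 in LT-HSC against 267, 277 and 252 CPM in HPC-1 (log2 fold change -0.67 ± 0.19, adjusted p = 0.0203). The groups did not overlap for either gene. With limma-voom 2 were called lower, with only the groups compared 2 and with the Y-linked covariate 18. In the omissions the lower calls were 7 and 9 without 1 LT-HSC and 10, 7 and 7 without 1 HPC-1. Glycolysis genes, 22 in all, split with 3 higher and 4 lower (median -0.09). Pgam1, a mutase of lower glycolysis, gave 50.6 and 57.2 in LT-HSC against 186, 245 and 261 CPM in HPC-1 (log2 fold change -2.10 ± 0.40, adjusted p = 0.00115), and Slc2a3, a high-affinity glucose transporter, ran the other way with 101 and 127 in LT-HSC against 46.7, 36.5 and 19.9 CPM in HPC-1 (log2 fold change 1.72 ± 0.35, adjusted p = 0.00163). Neither gene overlapped between the groups. The lower calls were 1 and 2 without 1 LT-HSC and 4, 2 and 2 without 1 HPC-1, and the higher calls 2 and 2 without 1 LT-HSC and 3, 4 and 3 without 1 HPC-1.

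Among 22 genes of the Myc network 1 was called each way, Mycn and Myc themselves, and the median was -0.41. The lower calls were 0 and 0 without 1 LT-HSC and 1, 1 and 0 without 1 HPC-1. Of 88 ribosomal protein genes, many with pseudogene copies that share reads, 86 were tested, 4 were called lower (Rpl10, Rpl15, Rps25 and Rps27l) and 0 higher, with a median of -0.25. Their summed level was 49545 and 49717 CPM in LT-HSC and 54587, 55454 and 56121 CPM in HPC-1, a narrow gap between the groups without overlap. DESeq2 called 7 lower, limma-voom 0 and edgeR with only libraries under 4 M counts 11. These calls came to 0 and 1 without 1 LT-HSC and 1, 1 and 2 without 1 HPC-1. Cholesterol synthesis and transport genes, of interest under this diet, had 25 tested, 1 higher (Apoe) and 2 lower, with a median of 0.42. With only the groups compared 0 of them were called. In the Myc, ribosomal and cholesterol lists the calls made were few, near the shares over all genes tested (5.37% higher and 5% lower). Sc5d, the sterol C5 desaturase, gave 0.963 and 0.995 in LT-HSC against 10.8, 13.3 and 12.6 CPM in HPC-1 (log2 fold change -3.60 ± 0.79, adjusted p = 0.00269) and Mvk, mevalonate kinase, 0.481 and 0 in LT-HSC against 3.29, 8.56 and 6.93 CPM in HPC-1 (log2 fold change -4.50 ± 1.03, adjusted p = 0.00391). LT-HSC held under 1 CPM of either in each library, and the lower calls were 3 and 1 without 1 LT-HSC and 2, 2 and 2 without 1 HPC-1. Among efflux pumps and detoxifying enzymes, which give stem cells their dye exclusion, 5 of 24 were higher and 0 lower (median 0.45). Abcg2, the pump behind the side population, gave 78.5 and 72.2 in LT-HSC against 33.2, 34.9 and 19.1 CPM in HPC-1 (log2 fold change 1.37 ± 0.31, adjusted p = 0.00397). Aldh1a1, an aldehyde dehydrogenase, gave 146 and 112 in LT-HSC against 11.4, 6.34 and 8.67 CPM in HPC-1 (log2 fold change 3.87 ± 0.70, adjusted p = 0.00105). Both genes separated the groups fully, and 3 of the 5 calls of the list held in all 5 omissions.

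The receptor under study and its pathway had 18 genes tested, 5 called higher in LT-HSC (Il27ra, Jak2, Stat3 and Osmr among them) and 2 lower (Il6st and Il6ra), with a median of 0.47. Il6st, gp130, the signalling subunit that the IL-27 receptor shares with the IL-6 family, gave 65.96 and 73.2 in LT-HSC against 113, 108 and 143 CPM in HPC-1 (log2 fold change -0.80 ± 0.22, adjusted p = 0.0144). The receptor subunits therefore differed in opposite directions, Il27ra above and Il6st below in every LT-HSC library. Il6ra, the IL-6 binding chain, gave 11.1 and 14.9 in LT-HSC against 52.7, 48.5 and 88.8 CPM in HPC-1 (log2 fold change -2.28 ± 0.52, adjusted p = 0.0049). Stat3, a transcription factor that the receptor activates, gave 255 and 273 in LT-HSC against 195, 186 and 128 CPM in HPC-1 (log2 fold change 0.64 ± 0.21, adjusted p = 0.0411) and Jak2 gave 162 and 147 in LT-HSC against 107, 92.9 and 59.4 CPM in HPC-1 (log2 fold change 0.84 ± 0.24, adjusted p = 0.0217). Both were higher in each LT-HSC library, by less than the receptor, and lowest in HPC-1 replicate 3. Higher calls of the pathway were 1 and 3 without 1 LT-HSC and 4, 4 and 1 without 1 HPC-1, lower calls 0 and 1 without 1 LT-HSC and 2, 2 and 1 without 1 HPC-1, and Il27ra was the gene called in all 5 cases.

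Genes of the interferon response were read next. Of 28 type I interferon-stimulated genes 5 were higher, 1 lower and 25 had estimates above 0, with a median of 0.71. Ifih1, the sensor MDA5 of long double-stranded RNA, gave 110.3 and 82.6 in LT-HSC against 53.9, 47.3 and 26.4 CPM in HPC-1 (log2 fold change 1.17 ± 0.29, adjusted p = 0.00628). Ddx58, the sensor RIG-I, gave 75.1 and 143 in LT-HSC against 64.4, 67.2 and 39.4 CPM in HPC-1 (log2 fold change 0.93 ± 0.27, adjusted p = 0.0209). Bst2, tetherin, was lower at 4.81 and 3.98 in LT-HSC against 9.88, 17.8 and 39.01 CPM in HPC-1 (log2 fold change -2.31 ± 0.68, adjusted p = 0.0233). HPC-1 replicate 3 was lowest of its group for the sensors and highest for Bst2. The number called higher was 3 and 2 without 1 LT-HSC and 5, 5 and 1 without 1 HPC-1, and 0 of the genes held their call in all 5 cases. Interferon-induced GTPases, which attack the vacuoles of parasites, with Irf1 made 13 tested genes, of which 7 were higher and 0 lower (median 1.25). Gbp7 gave 253 and 243 in LT-HSC against 112, 108 and 91.9 CPM in HPC-1 (log2 fold change 1.25 ± 0.20, adjusted p = 0.000226). Igtp gave 91.96 and 52.3 in LT-HSC against 33.2, 27.6 and 14.3 CPM in HPC-1 (log2 fold change 1.51 ± 0.34, adjusted p = 0.00299) and Iigp1 gave 46.7 and 76.6 in LT-HSC against 6.88, 5.07 and 3.901 CPM in HPC-1 (log2 fold change 3.52 ± 0.66, adjusted p = 0.00113). LT-HSC lay above HPC-1 in each. Gbp4, Gbp8, Gbp9, Tgtp1 and Iigp1 have near-identical copies, so the split of reads between copies is uncertain, and Gbp8 was at 0 in LT-HSC replicate 2. Calls of this list were 4 and 7 without 1 LT-HSC and 7, 6 and 6 without 1 HPC-1.

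Antigen presentation genes were read in a list for each class. Of 14 class I genes 2 were higher and 2 lower (median -0.20). The lower calls were 0 under RLE scaling, with only the Ang II groups and with a block for replicate number, and 1 under upper-quartile scaling. H2-K1, a classical heavy chain whose reads are shared with other H2 genes, gave 1044 and 1092 in LT-HSC against 714, 676 and 551 CPM in HPC-1 (log2 fold change 0.72 ± 0.17, adjusted p = 0.00596). Nlrc5, its transactivator, gave 239 and 211 in LT-HSC against 146, 121 and 106 CPM in HPC-1 (log2 fold change 0.86 ± 0.25, adjusted p = 0.0226). Erap1, a peptide trimming enzyme, was lower (88.1 and 146 in LT-HSC against 169.7, 182 and 206 CPM in HPC-1, log2 fold change -0.67 ± 0.21, adjusted p = 0.0367). These gaps were modest and without overlap, and in the omissions the higher calls were 1 and 1 without 1 LT-HSC and 2, 2 and 1 without 1 HPC-1 and the lower calls 0 and 1 without 1 LT-HSC and 2, 0 and 0 without 1 HPC-1. Of 10 class II genes 3 were higher and 0 lower (median 0.69), all at low levels. Cd74, the invariant chain, gave 32.3 and 27.4 in LT-HSC against 1.497, 1.903 and 6.501 CPM in HPC-1 (log2 fold change 3.23 ± 0.99, adjusted p = 0.0346). H2-Eb1, a class II beta chain, gave 18.3 and 22.9 in LT-HSC against 1.197, 0.634 and 0 CPM in HPC-1 (log2 fold change 4.91 ± 1.13, adjusted p = 0.00385). The class II calls were 3 and 1 without 1 LT-HSC and 2, 1 and 2 without 1 HPC-1.

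The renin-angiotensin genes bear on the infused peptide. Of 14 listed 6 were tested, and the angiotensin receptor genes Agtr1a, Agtr1b and Agtr2, with Agt and Ren1, were at 0 in all 5 libraries, which at the floor of 3 counts allows 0.898 to 1.49 CPM, depending on the library. Anpep, an aminopeptidase that trims angiotensin III, gave 5.78 and 10.5 in LT-HSC against 1.497, 0.951 and 0 CPM in HPC-1 (log2 fold change 3.18 ± 0.89, adjusted p = 0.0175). Atp6ap2, the prorenin receptor, gave 11.1 and 12.9 in LT-HSC against 32.6, 37.4 and 28.6 CPM in HPC-1 (log2 fold change -1.45 ± 0.38, adjusted p = 0.0119). One was higher and the other lower in LT-HSC without overlap. Anpep was not called without LT-HSC replicate 2 (0 higher calls in the list) or HPC-1 replicate 3 (0), and Atp6ap2 not without LT-HSC replicate 1 (0 lower calls) or replicate 2 (0).

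Growth factor receptors, 20 in all, had 2 called higher (Tek among them) and 4 lower (median -0.71), and with no filter 7 were lower. Csf2rb, the shared beta chain of the IL-3, IL-5 and GM-CSF receptors, gave 19.7 and 26.9 in LT-HSC against 139, 136 and 117 CPM in HPC-1 (log2 fold change -2.49 ± 0.78, adjusted p = 0.0425). Tgfbr1, a receptor for the TGF-beta that keeps stem cells at rest, gave 25.5 and 16.4 in LT-HSC against 56.9, 57.1 and 68.04 CPM in HPC-1 (log2 fold change -1.53 ± 0.27, adjusted p = 0.000394). Both were lower in LT-HSC throughout. In the omissions the lower calls were 1 and 3 without 1 LT-HSC and 2, 3 and 2 without 1 HPC-1, and there was 1 higher call without LT-HSC replicate 1. Adhesion and homing receptors of the niche, 25 tested, split with 5 higher and 6 lower (median -0.22). Cxcr4, the receptor that holds cells in marrow, gave 16.4 and 26.4 in LT-HSC against 66.1, 93.9 and 76.7 CPM in HPC-1 (log2 fold change -1.88 ± 0.54, adjusted p = 0.0247). Itgal, a chain of LFA-1, gave 4.33 and 13.9 in LT-HSC against 139, 143 and 117 CPM in HPC-1 (log2 fold change -3.86 ± 1.17, adjusted p = 0.0355). Angpt1, the ligand of Tek, gave 979 and 912 in LT-HSC against 486, 360.3 and 264 CPM in HPC-1 (log2 fold change 1.35 ± 0.39, adjusted p = 0.0252). Jam2, a junctional adhesion molecule, gave 24.1 and 21.9 in LT-HSC against 0.599, 2.22 and 0 CPM in HPC-1 (log2 fold change 4.48 ± 0.86, adjusted p = 0.00105). The first pair was lower and the second higher in LT-HSC with no overlap. Higher calls of this list were 2 and 4 without 1 LT-HSC and 5, 4 and 4 without 1 HPC-1, and lower calls 2 and 1 without 1 LT-HSC and 5, 4 and 3 without 1 HPC-1.

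Stress genes were read as well, beside the 5.37% of all genes tested that were called higher. Of 23 immediate early genes 2 were higher, Egr1 and Nfkbia, the latter the feedback inhibitor of NF-kB with 54.4 and 48.3 in LT-HSC against 17.1, 13.95 and 10.8 CPM in HPC-1 (log2 fold change 1.87 ± 0.36, adjusted p = 0.000882), and 0 were lower (median 0.95). With no filter 9 of the 23 were called higher, with only the groups compared 4, and 19 estimates were above 0. Nfkbia was called in all 5 omissions, and the calls of the list were 2 and 1 without 1 LT-HSC and 1, 1 and 1 without 1 HPC-1. Of 21 genes of Trp53 and its targets 2 were higher, Sesn2 (21.7 and 13.9 in LT-HSC against 5.39, 4.44 and 0 CPM in HPC-1, log2 fold change 2.38 ± 0.67, adjusted p = 0.019) and Ei24 (75.1 and 47.8 in LT-HSC against 34.1, 22.8 and 38.1 CPM in HPC-1, log2 fold change 0.96 ± 0.32, adjusted p = 0.0462), and 0 lower, and the median of -0.01 turned to 0.06 under RLE and 0.03 under upper-quartile scaling. These calls numbered 0 and 2 without 1 LT-HSC and 2, 1 and 0 without 1 HPC-1.

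Other fits moved the counts of more lists by over 1.5 times. With limma-voom the lower calls were 10 for the HPC-1 and progenitor markers, 6 for the licensing genes, 4 for the lineage factors, 2 for the early lymphoid genes and 2 for the growth factor receptors. It called 3 genes of the receptor pathway higher and 0 lower, 3 type I interferon genes higher, 1 glycolysis gene higher and 2 lower, and 0 renin-angiotensin genes lower. With only the groups compared the higher calls were 5 for the imprinted genes, 4 for the interferon-induced GTPases, 1 for the type I interferon genes, 2 for the receptor pathway, 3 for the efflux list, 1 for class II and 0 for the Trp53 targets. The lower calls in that fit were 8 for the licensing genes, 3 for the mitotic genes and 0 for the cholesterol genes, and the renin-angiotensin list had 0 either way. DESeq2 called 9 type I interferon genes, 6 glycolysis genes and 8 niche receptors higher. A block for replicate number left 6 lower calls for the HPC-1 and progenitor markers, 5 for licensing genes and 2 for granule genes. It left 3 for the lineage factors, 3 for the niche receptors and 2 for the early lymphoid genes. Higher calls were then 6 for imprinted genes, 3 for the efflux list, 3 for type I interferon genes and 0 for Trp53 targets. The receptor pathway had 1 call each way in that fit.

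**Figure D4:**
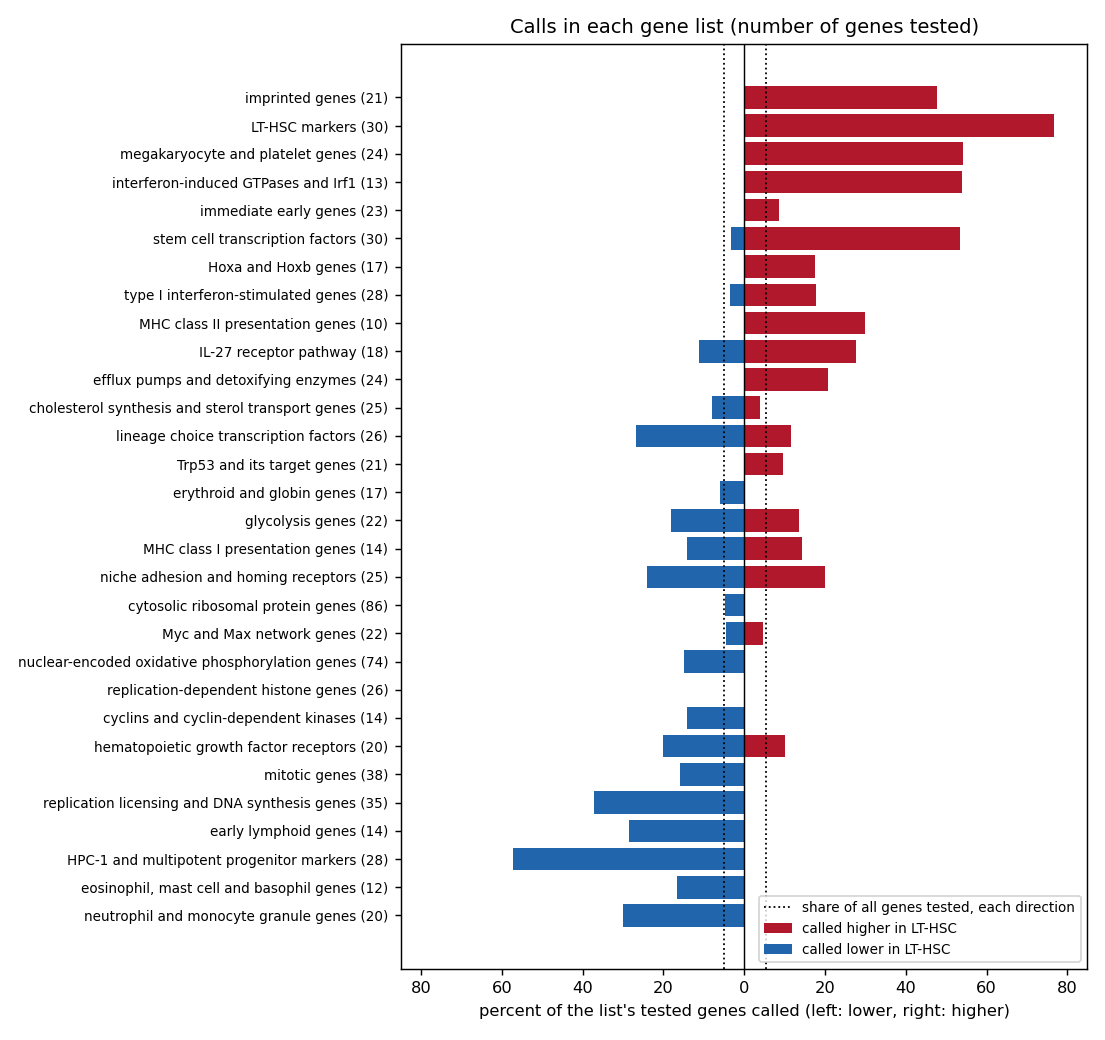
Percent of the tested genes of each list called higher (right) or lower (left) in LT-HSC, for lists with at least 10 genes tested, ordered by median log2 fold change, with the number tested in brackets. Dotted lines are the shares over all genes tested, 5.37% higher and 5% lower, and 23 of the 30 LT-HSC markers were higher while 16 of the 28 HPC-1 markers were lower.

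Marker genes of cells outside the gates were read in every library. Of 40 genes of intestinal epithelium 31 were tested, 2 were called higher (Krt18 and Dsp) and 0 lower, and the median was 1.52. With limma-voom 17 of the 31 were called higher (median 2.05), with DESeq2 3 and with no filter 4, and edgeR's higher calls were 1 and 2 without 1 LT-HSC and 2, 2 and 3 without 1 HPC-1. Their summed level was 1426 and 1535 CPM in LT-HSC and 711, 627 and 924 CPM in HPC-1, against 480 to 1279 (median 557) in other LT-HSC and 426 to 776 (median 499) in other HPC-1 libraries. All but HPC-1 replicates 1 and 2 were above every other library of their cell type. Muc13 held the most counts (522 and 527 in LT-HSC against 494, 436 and 346 CPM in HPC-1), a gene that blood progenitors also express, and the defining genes Fabp1 and Guca2b were at 0 in all 5 libraries. Dmbt1, a secreted gut protein, gave 124 and 193 in LT-HSC against 25.4, 24.4 and 70.2 CPM in HPC-1. With the genes of this list and of the hepatocyte, pancreatic, keratinocyte and airway lists taken out before normalization, 1883 genes were called in place of 1868. The part of this signal in the result of any other gene was not tested.

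Genes of stroma and endothelium had 16 of 18 tested, 3 higher (Vwf, Emcn and Myh11) and 2 lower (Pdgfrb and Pecam1), and summed levels of 596 and 534 CPM in LT-HSC and 301, 308 and 311 CPM in HPC-1. The higher calls were 1 and 2 without 1 LT-HSC and 2, 1 and 1 without 1 HPC-1, and the lower calls 1 and 2 without 1 LT-HSC and 2, 2 and 2 without 1 HPC-1. Vwf held the most counts, and Adipoq and Bglap were at 0 in all 5 libraries. For hepatocytes 5 of 15 genes were tested, sums were 31.8 and 49.8 against 114, 100.2 and 104 CPM, in HPC-1 mostly from Trf, transferrin (89.5, 83.1 and 87.5 CPM), and the defining genes Ahsg, Apoa2, Apoc3, Fga and Fgb were at 0. Trf was called lower in LT-HSC (log2 fold change -3.42 ± 0.73, adjusted p = 0.00341), and without LT-HSC replicate 2 edgeR called 0 of the list. For mature neutrophils 14 of 14 were tested, edgeR called 0 in the main fit and 7 lower with no filter, and sums were 16.4 and 33.3 against 61.7, 89.7 and 137 CPM, with the highest mean over the 5 libraries for Itgam. For macrophages and dendritic cells 14 of 15 were tested, Hmox1 was higher and Cd68 lower, and sums were 13.5 and 10.5 against 57.8, 87.2 and 89.7 CPM, in HPC-1 mostly from Csf1r, with Marco and Xcr1 at 0. The higher call of this list was lost in each of the 5 omissions, and the lower calls were 1 and 0 without 1 LT-HSC and 1, 1 and 1 without 1 HPC-1. The myeloid sums were thus low beside those of the granule genes, and highest in HPC-1.

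For B cells 5 of 15 were tested and edgeR called 0 in the main fit, where DESeq2 and edgeR with no filter called 1 lower, with sums of 20.7 and 16.4 against 86.5, 94.5 and 170.3 CPM, in HPC-1 mostly from Ighm, and with Ms4a1, Cd79a and Pax5 at 0. For T and NK cells 5 of 15 were tested and Nkg7 was called lower, sums were 7.70 and 9.46 against 40.4, 49.8 and 16.5 CPM, and Cd3g, Cd8a and Trac were at 0. Nkg7 values overlapped, with 0.481 and 3.48 in LT-HSC against 35.9, 43.4 and 0.867 CPM in HPC-1, and the lower calls of the list were 0 and 1 without 1 LT-HSC and 1, 0 and 1 without 1 HPC-1. The lists of pancreatic acinar cells (2 of 15 tested), keratinocytes (8 of 15) and airway epithelium (5 of 14) had 0 calls by edgeR in the main fit, DESeq2 and edgeR with no filter called 1 acinar gene higher, and the sums of the lists stayed at or under 30.8 CPM in each library. Of their genes Prss1, Krt5, Krt14, Scgb1a1 and Foxj1 were at 0. The part of the listed cells in the results was not tested.

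A last set of comparisons asks whether the difference between LT-HSC and HPC-1 varied with the Il27ra genotype under the same agent. In heterozygous mice 2676 genes differed (14.9%), with 1368 higher (7.59%) and 1308 lower (7.26%). In knockout mice 2257 differed (12.5%), with 1269 higher (7.04%) and 988 lower (5.48%). These groups share no samples with the intact mice, though they share the model. Of the 968 genes higher in intact mice, 647 were also higher in heterozygotes (66.8% of the intact and 47.3% of the heterozygous list) and 621 in knockouts (64.2% and 48.9%). On the lower side the overlaps were smaller shares, 382 (42.4% and 29.2%) and 319 (35.4% and 32.3%). All 3 genotypes shared 552 higher and 262 lower genes, which is 57.0% and 29.1% of the intact lists. In the intact mice alone 252 of the 968 higher and 461 of the 900 lower genes were called, which is no test of a difference between genotypes. Estimates had the same sign for 96.2% of the 968 higher genes in heterozygotes and 97.2% in knockouts. For the 900 lower genes these shares were 87.9% and 90.1%. Opposite calls were 0 in each direction against heterozygotes, and against knockouts 1 gene of the higher list and 2 of the lower list. The median log2 fold change of the 900 lower genes was -1.44 in intact mice and -0.57 and -0.56 in the others, and that of the 968 higher genes was 2.15 against 1.49 and 1.40. Since the genes were chosen by their call in the intact mice, a smaller median elsewhere is built into the choice. Across all 18013 genes the log2 fold changes correlated at r = 0.338 for heterozygotes and 0.297 for knockouts. Across the 1868 genes called in intact mice r was 0.81 and 0.794. Both describe genes that are not independent, and the 1868 were chosen by their call.

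The difference itself was tested as an interaction. Against heterozygotes 21 genes passed (0.117%), 1 higher (0.00555%) and 20 lower (0.111%). Against knockouts 9 passed (0.05%), 0 higher (0%) and 9 lower (0.05%), and all 9 were among the 21. By edgeR the unadjusted p was under 0.05 for 1827 and 1776 genes, and the higher calls against knockouts were 5 with DESeq2 and 3 with limma-voom. Leaving out 1 library moved the count against heterozygotes to 97 (LT-HSC replicate 1), 12 (HPC-1 replicate 1) and 10 (HPC-1 replicate 2), and the count against knockouts to 64 (LT-HSC replicate 1) and 23 (LT-HSC replicate 2). Without LT-HSC replicate 1, 7 of the 21 genes against heterozygotes and 5 of the 9 against knockouts were called again, and without LT-HSC replicate 2, where 22 were called against heterozygotes, 2 of the 21 and 1 of the 9. The calls depend on the fit as well: with only the groups compared 0 genes passed against heterozygotes and 1 against knockouts, with only the Ang II groups 1 and 4, and with only libraries under 4 M counts 1 and 5. Limma-voom called 1 and 5, of which 0 were among the 21 and 2 among the 9. More genes were called by DESeq2, 58 and 66, and by edgeR with no filter, 129 and 192. The DESeq2 calls held 20 of the 21 and 9 of the 9, and those with no filter 19 and 9. A block for replicate number gave 6 and 5, of which 4 were among the 21 and 2 among the 9. In all 20 lower genes the intact LT-HSC libraries lay under every heterozygous LT-HSC library, and 10 of the 20 were at 0 in both intact libraries with counts in all 8 LT-HSC libraries of the other genotypes. Against knockouts 5 of the 9 were of that kind. Gm26617, a noncoding RNA, was at 0 in both LT-HSC libraries and 17.4, 14.6 and 13 CPM in HPC-1 (at least 10.2-fold lower, adjusted p = 0.000255), where heterozygous LT-HSC gave 8.601, 16.4 and 22.2 and knockout LT-HSC 11.8, 13.1 and 24.8 CPM (lowest, median and highest of 4). Mterf1a, a mitochondrial transcription terminator, was at 0 in both LT-HSC libraries and 5.09, 5.07 and 27.7 CPM in HPC-1, where heterozygous LT-HSC gave 6.71, 7.47 and 8.23 and knockout LT-HSC 3.02, 6.51 and 9.41 CPM. Lysmd3 gave 1.93 and 1.99 CPM in the intact LT-HSC, where heterozygous LT-HSC gave 8.96, 21.6 and 23.5 and knockout LT-HSC 18.9, 20.6 and 23.7 CPM. For these genes the intact LT-HSC libraries lay apart from the LT-HSC of both other genotypes, with no overlap. Sc5d, described above, differed against knockouts likewise, with 17.3, 19.04 and 30.3 CPM in knockout LT-HSC. Triobp, an actin bundling protein and the gene higher against heterozygotes, gave 173 and 131 in LT-HSC against 72.1, 74.2 and 54.6 CPM in HPC-1, where heterozygous LT-HSC gave 90.5, 105 and 112 and heterozygous HPC-1 87.7, 105 and 109.9 CPM. Without each HPC-1 replicate the number of higher genes was 0, and without LT-HSC replicate 1 it was 14. The part of the genes missing from the intact LT-HSC libraries in these counts was not tested, and the groups also differ in the number of LT-HSC libraries, 2 against 4. For Il27ra and the markers Slamf1, Cd48 and Mpo the interaction passed in neither comparison (adjusted p of 0.451 and 0.479 for Il27ra, 0.853 and 0.527 for Slamf1, 0.822 and 0.684 for Cd48, and 1 and 0.415 for Mpo). In knockout LT-HSC Mpo ran from 1.02 through a median of 15.04 to 1109.6 CPM, so a library there stood far above the others.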

How the data were processed

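The authors sequenced stranded low-input total RNA libraries as paired 75 bp reads, kept samples with at least 20% exonic reads and aligned them to mm10. Their RSEM expected counts of each gene were deposited as whole numbers without normalization. The aligner and the RSEM version (1.2.12 or 1.2.31) differ between the methods and the series notes, and whether counting used strand is not stated. Of 38887 genes, 18013 passed filterByExpr and were tested in all 36 libraries and 12 groups with edgeR 4.0.16 (R 4.3.3, TMM, robust quasi-likelihood test, Benjamini-Hochberg adjustment at 0.05). The study fitted DESeq2 with gender, which the labels lack. Symbols and mm10 positions (GENCODE M21) matched 37570 identifiers.

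Named genes were the markers, the 12 called genes per direction with the smallest p, no overlap and a mean of at least 20 CPM in the higher group, 5 interaction genes per direction, and, from 45 lists, genes with large changes, the most counts or 0. Apoe and list genes described for their role were chosen after their values were seen. Some genes of these choices are not reported here. Members and lists were chosen with earlier results of these data known. Standard errors are the log2 fold change over the square root of F. Alternatives were DESeq2 1.42.0, limma-voom (limma 3.58.1), RLE and upper-quartile scaling, other filters, other samples in the fit, a Y-linked covariate, no robust option, a replicate block, and each library left out. Scripts ran in Python 3.11.15 with pandas 2.3.3, numpy 2.4.6, scipy 1.17.1 and matplotlib 3.10.9.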

Additional observations from a re-analysis of the deposited data

Results flagged for a closer look

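In edgeR's main fit the difference between LT-HSC and HPC-1 itself passed the test of the interaction with genotype for some genes (Benjamini-Hochberg adjustment), most of which were lost in fits with fewer groups or by limma-voom. Of the 21 genes against heterozygotes and 9 against knockouts, DESeq2 called 20 and 9 again. EdgeR with no filter called 19 and 9 of them again, and with a block for replicate number 4 and 2. Against heterozygous mice 21 genes passed, and the log2 difference of the change was 1.17 for Triobp, -9.58 for Gm26617, -8.95 for Mterf1a, -3.63 for Lysmd3, -4.70 for 4632404H12Rik and -9.28 for Cmc4. Against knockout mice 9 passed, with -3.83 for Lysmd3, -8.82 for Gm26617, -8.78 for ENSMUSG00000079437, which has no symbol, -4.96 for Sc5d and -8.69 for Mterf1a. Gm26617, Mterf1a, Cmc4 and ENSMUSG00000079437 were at 0 in both intact LT-HSC libraries, so their fitted values depend on the prior count and are no measure of size. Among 16 combinations of a library property and a group of 4, 1 library lay far from its group: HPC-1 replicate 4 of heterozygotes given Ang II held 6318379 counts. Chance alone gives about 1 such library in 20 groups.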

How the results depend on the processing

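Of 589 values of 31 chosen genes under 19 alternatives, 574 kept direction and side of the threshold. A further 13 lost the call, 2 gained it and 0 reversed, and 24 genes kept theirs under all. Apart from the markers, the 31 genes were chosen for the smallest p and no overlap in the main fit. Their kept calls are thus largely built into the choice and do not measure how the 1868 calls hold. Of the 1868 calls, DESeq2 shared 1855, limma-voom 1059 and edgeR with only the groups compared 540. The adjusted p rose to 0.0745 for Slamf1 and 0.136 for Apoe with only the groups compared in the fit, and to 0.0692 for Mpo under limma-voom. The 1868 calls became 611 with only the groups compared (339 higher, 272 lower), limma-voom called 437 lower, and leaving out a library gave 1113 to 1600 (542 to 808 higher, 545 to 792 lower). Fewer samples then estimate the spread. With only the groups compared 11667 genes were tested in place of 18013 as well, and the part of each was not tested. The 21 calls against heterozygotes were 58 with DESeq2 (6 higher, 52 lower), 1 with limma-voom (0 lower), 129 without a filter (43 and 86), 0 with only the groups compared (0 and 0), 1 with only the Ang II groups (0 and 1), 1 with only libraries under 4 M counts (0 and 1) and 3 higher with a Y-linked covariate, and libraries left out gave 10 to 97 (0 to 14 higher, 10 to 83 lower). By edgeR 1827 genes had an unadjusted p under 0.05 here. The 9 calls against knockouts were 66 with DESeq2 (5 higher, 61 lower), 5 with limma-voom (3 and 2), 192 without a filter (41 and 151), 15 with a mean of 10 counts as filter (15 lower), 1 with only the groups compared (1 lower), 4 with only the Ang II groups (4 lower), 5 with only those libraries (5 lower), 1 higher without the PBS knockout LT-HSC library 2 and 1 higher with the Y-linked covariate, and libraries left out gave 8 to 64 (0 to 4 higher, 8 to 60 lower). The cause was not tested. Replicate numbers were not taken to pair the samples, as no label ties them to an animal and deviations of same-numbered libraries correlated at -0.197 to 0.317 over 16 pairs, 7 of them over 0.1, and at 0.009 and 0.021 for the 2 pairs here. The same-numbered library was the best match in 10 of the 16, both pairs here included, which is a hint from the data and not the design. With the replicate block the adjusted p of Cd48 was 0.0524, 1 cyclin-dependent kinase inhibitor was called higher and 1089 genes were called (532 higher, 557 lower), 6 against heterozygotes (5 lower) and 5 against knockouts (5 lower), and of the 1868 calls 958 were among the 1089. Depth limits the genes at 0, where 3 counts allow 0.898 to 1.49 CPM.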
